A study of Mus musculus with 16 samples.

Results

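The 9 genes of the tight junction described here were followed in lumbar spinal cord of SOD1G93A and wild-type mice of 40 and 80 days. They were *Cldn1*, *Cldn5*, *Cldn10*, *Cldn12*, *Ocln*, *Tjp1*, *F11r*, *Llgl1* and *Myh14*. Members were the array probes, control spots left out, whose gene name was 1 of these 9 symbols, which gave 13 probes among the 41174 probes and 27962 gene names of the array. SOD1G93A mice carried the human SOD1 transgene of that name in high copy number, and wild-type mice were their non-transgenic (NonTg) littermates. Both genotypes were of the B6SJL background and, by the methods of the study, male and without symptoms at both ages. The 4 groups were wild-type 40 days, SOD1G93A 40 days, wild-type 80 days and SOD1G93A 80 days, with 4 arrays each, labelled as biological replicates and kept after array quality control.

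On each array the spinal cord RNA was labelled with Cy3 and hybridized together with a Cy5-labelled reference, a pool of neonatal organs (heart, kidney and liver) from NonTg and SOD1G93A animals. The measure is the log2 ratio of spinal cord to reference after normalization. A difference between groups is given in log2 units, and a ratio of a probe says nothing of its level against another probe. Dyes were not swapped. Since the tissue was taken whole, fewer cells of a type and less RNA per cell cannot be told apart in any result given here.

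The tight junction seals the space between neighbouring epithelial or endothelial cells. Claudins and occludin form its strands in the membrane, junctional adhesion molecules lie beside them, and ZO proteins tie the strands to actin and myosin in the cytoplasm. In the central nervous system the best known tight junctions join the endothelial cells of vessels at the blood-brain and blood-spinal cord barriers, where claudin-5 is the leading claudin. Several of these genes are also used outside vessels, by glia or by neurons.

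Probe sequences are shown for *Cldn10*, which has alternative transcripts, and for *Tjp1*, whose probes gave different calls. Whether the *Cldn10* result depends on the transcript was not tested. *Cldn10* has alternative starts that encode different claudin-10 isoforms, and its only probe, A_51_P456465 (mm7, chr14:113277851-113277910, plus strand), is annotated in the files to 2 RefSeq transcripts. *Tjp1* has a second, dimmer probe, A_52_P60338 (mm7, chr7:61171235-61171294, minus strand), which was called at 80 days where the first was not. Exon annotation for mm7 was not given in the sources used here. Both probes are 60 bases long and are printed 5′ to 3′ as in the files.
Cldn10 A_51_P456465: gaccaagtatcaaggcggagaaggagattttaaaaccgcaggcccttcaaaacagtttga
Tjp1 A_52_P60338: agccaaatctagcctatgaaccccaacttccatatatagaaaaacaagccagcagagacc

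The windows upstream of the *Cldn10* starts and of *Myh14* are shown because *Cldn10* was lower and *Myh14* higher in SOD1G93A at 80 days. They are RefSeq sequences of build GRCm38.p6, up to 250 bases before a start, and all 9 genes were matched, with 13 windows. Capitals mark the CCAAT box, the GC box (letters GGGCGG) or the TATA box (letters TATAAA), each searched on both strands, so that a CCAAT box of the other strand reads ATTGG. The *Cldn10* starts lie 67.1 kb apart, at chr14:118787621-118787870 and chr14:118854700-118854949 (plus strand). The *Myh14* window is chr7:44670873-44671093 (minus strand, 221 bases), without the bases that lie inside the gene.
Cldn10 start 1: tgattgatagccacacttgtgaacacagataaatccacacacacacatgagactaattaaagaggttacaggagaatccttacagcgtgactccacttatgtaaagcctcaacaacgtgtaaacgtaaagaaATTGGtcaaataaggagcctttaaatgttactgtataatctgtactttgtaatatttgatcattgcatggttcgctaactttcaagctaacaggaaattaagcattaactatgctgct
Cldn10 start 2: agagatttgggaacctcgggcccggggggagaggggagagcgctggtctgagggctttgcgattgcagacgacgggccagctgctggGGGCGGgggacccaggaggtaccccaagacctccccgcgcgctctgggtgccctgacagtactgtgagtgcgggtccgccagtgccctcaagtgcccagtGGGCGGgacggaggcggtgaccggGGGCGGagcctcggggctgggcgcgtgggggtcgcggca
Myh14 start 1: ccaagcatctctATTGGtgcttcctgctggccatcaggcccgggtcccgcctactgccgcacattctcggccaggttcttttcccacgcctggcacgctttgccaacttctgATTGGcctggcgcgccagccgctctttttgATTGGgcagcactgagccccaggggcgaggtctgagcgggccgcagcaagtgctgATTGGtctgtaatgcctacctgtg

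The *Cldn10* windows differed in base composition. The upstream start held 36% G and C with 4 CpG dinucleotides, and the downstream start 72.4% with 22 CpG, against a median of 52.4% and 6 CpG over all 32851 windows. The upstream window had 1 CCAAT, a motif held by 33.8% of all windows, and the downstream window had 3 GGGCGG, a motif held at least 3 times by 8.47%. The *Myh14* window held 4 CCAAT, and 0.84% of all windows held 4 or more. None of the 3 motifs was in the *Llgl1* window, and TATAAA, held by 12.4% of all windows, was in no window of the 9 genes. These are matches of letters, and the arrays do not tell which start was used.

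Between 46.1% and 55.3% of probes were well above background in Cy3 on an array, and the correlation between arrays over tested probes lay between 0.970 and 0.992. The replicate number is the slide, and each group held its own position on the 4 slides, so that position and group cannot be told apart. The mouse *Sod1* probes do not check the genotype labels, since whether they can read the human transgene was not tested. Their genotype differences did not pass the test (limma p 0.0532 to 0.854 where tested). Of the 9 genes, 8 were tested by their brightest probe. Both *Cldn1* probes were too dim, as were the second probes of *Ocln* and *Myh14*.

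At 40 days 0 of the 8 tested genes were called between the genotypes. The changes lay between −0.09 and 0.08 with a median of 0.0013, against a median of 0.0029 over all 21338 probes tested, and in every gene the arrays of the genotypes overlapped. Over all probes 4.47% passed an unadjusted p of 0.05 in limma, the threshold of the study, and 2.86% did not overlap. At 80 days 4 of the 8 were called. *Llgl1* and *Myh14* were higher and *Cldn10* and *Cldn12* lower in SOD1G93A than in wild-type of that age. In all 4 no SOD1G93A array lay within the range of the wild-type arrays. Over all 21603 probes 6.86% were called, 3.74% higher and 3.12% lower, and 4.34% did not overlap. No probe passed Benjamini-Hochberg adjustment at either age, when 953 probes at 40 days and 1481 at 80 days had an unadjusted p under 0.05 in limma, and the smallest adjusted p over all probes was 0.998 and 0.0729. *Cldn10*, *Llgl1* and *Myh14* were already listed by the study as changed at 80 days on these same arrays, so their calls are not independent evidence.

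**Figure D1:**
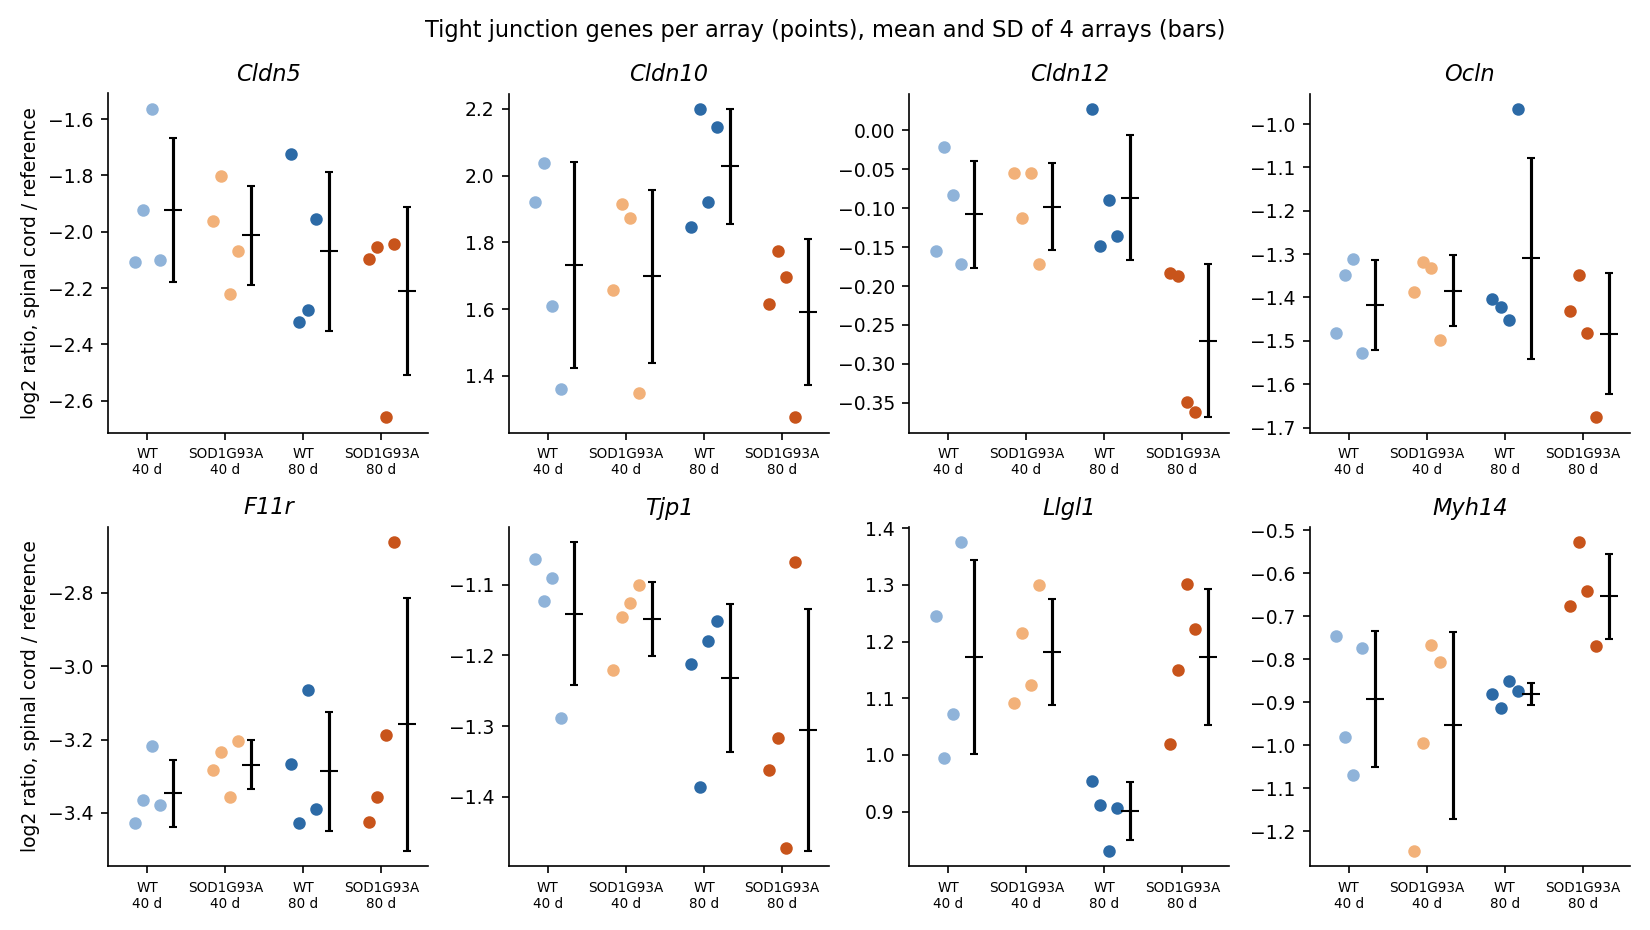
Log2 ratio of spinal cord to reference (y axis) of the brightest probe of 8 genes on each of the 16 arrays (points, by group on the x axis), with the mean and SD of 4 arrays (bars). At 80 days the SOD1G93A points of Llgl1 and Myh14 lie above, and those of Cldn10 and Cldn12 below, all wild-type points.

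*Cldn5*, the main claudin of the vessel wall, was well above background on all 16 arrays. Its log2 ratios were −2.11, −1.92, −1.56 and −2.10 in wild-type and −1.96, −1.80, −2.22 and −2.07 in SOD1G93A at 40 days. At 80 days they were −1.73, −2.32, −2.28 and −1.96 in wild-type and −2.10, −2.05, −2.66 and −2.04 in SOD1G93A. The genotypes overlapped at both ages, and at 80 days SOD1G93A replicate 3 was the lowest of all 16 arrays. The change was −0.09 ± 0.13 (SE, n = 4 per group, limma p = 0.5, exact permutation p = 0.629) at 40 days and −0.14 ± 0.17 (limma p = 0.408, exact permutation p = 0.514) at 80 days, with a 95% interval at 80 days from −0.51 to 0.22. Without that array it was 0.0061.

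Markers of endothelial cells were read beside it. All 15 were well above background on all 16 arrays, and at 80 days 0 were called by limma, with a median change of 0.018. At 40 days 12 of the 15 had a negative change, with a median of −0.05. Of these 1 was called lower (*Emcn*, −0.21, limma adjusted p = 0.998), when 4.47% of all probes were called. Their mean log2 ratio ran from −0.49 to −0.32 over the wild-type and from −0.56 to −0.28 over the SOD1G93A arrays of 80 days, and the lowest value was again that of SOD1G93A replicate 3. Over the 16 arrays *Cldn5* and the endothelial mean had a Pearson r of 0.637 (permutation p = 0.00725, adjusted 0.18 over 80 relations of members and cell type lists) and a Spearman rho of 0.506 (permutation p = 0.0473). Without the 2 arrays farthest from the median r was 0.311, so the relation rests on them.

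*Cldn10* codes for claudin-10, which forms ion-selective pores in epithelia. Its log2 ratios at 80 days were 1.85, 2.20, 1.92 and 2.15 in wild-type and 1.62, 1.78, 1.70 and 1.28 in SOD1G93A. Each SOD1G93A array was below each wild-type array. *Cldn10* fell by 0.44 on the log2 scale (SE 0.12, 95% interval −0.70 to −0.17, a fold of 0.739, limma p = 0.00402, adjusted p = 0.654), and the exact two-sided permutation p was 0.0286, the smallest that 4 arrays against 4 can give. SOD1G93A was the lower on all 4 slides, with SOD1G93A minus wild-type differences of −0.87 to −0.22 and the widest on the slide of replicate 4. At 40 days the values were 1.92, 2.04, 1.61 and 1.36 in wild-type and 1.66, 1.91, 1.87 and 1.35 in SOD1G93A, which overlapped (change −0.03 ± 0.16, limma adjusted p = 0.998).

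*Cldn12* codes for a claudin that lacks the usual end by which claudins bind ZO proteins. Its probe was dimmer, with a Cy3 signal between 86 and 112 units where the median local background of an array was 35 to 38. At 80 days the log2 ratios were 0.03, −0.15, −0.09 and −0.14 in wild-type and −0.18, −0.19, −0.35 and −0.36 in SOD1G93A. The highest SOD1G93A array lay just below the lowest wild-type array. *Cldn12* was lower in SOD1G93A by 0.18 (SE 0.07, fold 0.881, limma p = 0.0253, adjusted p = 0.708, exact permutation p = 0.0286). The call was lost under 5 of 9 other ways of processing, with a change of −0.05 without normalization within arrays, and without wild-type replicate 1, SOD1G93A replicate 3 or SOD1G93A replicate 4 of 80 days (−0.15, −0.16 and −0.15). At 40 days the change was 0.0093 ± 0.06 (limma adjusted p = 0.998).

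*Cldn1* was well above background in Cy3 on 2 of the 16 arrays by its brighter probe and on 0 by the other. Both of those arrays were SOD1G93A 40 days, with signals of 53 and 48 units. No level or change of *Cldn1* is given for spinal cord, although the reference was well above background for both probes on every array.

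*Ocln* codes for occludin, a strand protein with 4 membrane spans. Its brighter probe was near the limit of detection, with Cy3 signals of 43 to 56 units, and was well above background on 13 of the 16 arrays. At 80 days the log2 ratios were −1.40, −1.42, −1.45 and −0.97 in wild-type and −1.43, −1.35, −1.48 and −1.68 in SOD1G93A. Wild-type replicate 4 stood above all other arrays. It was also the array with the lowest signals of this probe in both channels, 43 units in Cy3, not well above background, and 563 in Cy5 where the other 80-day arrays had 956.5 or more. The change was −0.17 ± 0.12 (limma p = 0.163, exact permutation p = 0.314) with that array and −0.06 without it. At 40 days it was 0.03 ± 0.07 (limma p = 0.635, exact permutation p = 0.714).

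*F11r* codes for JAM-A, a junctional adhesion molecule of endothelium and epithelium that leukocytes carry too. Its log2 ratios at 80 days were −3.27, −3.43, −3.07 and −3.39 in wild-type and −3.42, −3.36, −3.19 and −2.66 in SOD1G93A. The genotypes overlapped, and SOD1G93A replicate 4 was the highest of the 16 arrays. The change was 0.13 ± 0.15 (limma p = 0.422, exact permutation p = 0.6, 95% interval −0.21 to 0.47), and −0.04 without that array. At 40 days the arrays lay between −3.43 and −3.20 in both genotypes together, with a change of 0.08 ± 0.06 (limma p = 0.24, exact permutation p = 0.2).

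*F11r* ran with the markers of microglia from array to array. The mean log2 ratio of the 7 markers, all well above background on all 16 arrays, was 1.28 on SOD1G93A replicate 4 and 1.04 on wild-type replicate 3 of 80 days, and between 0.43 and 0.76 on the other arrays. The same arrays held the highest and the next highest *F11r*. Over 16 arrays r was 0.922 (permutation p = 1e-05, the smallest that 100000 resamples can give, adjusted 8e-04 over 80 relations) and rho was 0.694 (permutation p = 0.0037). Without the 2 arrays farthest from the median r was 0.640, and after the group means were taken away it was 0.952. No microglial marker was called by limma at 80 days, and their median change was 0.034. Of all 20808 probes compared over the 16 arrays, the genes most like *F11r* were *Lag3* (r = 0.946) and *Irf8* (r = 0.943).

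**Figure D2:**
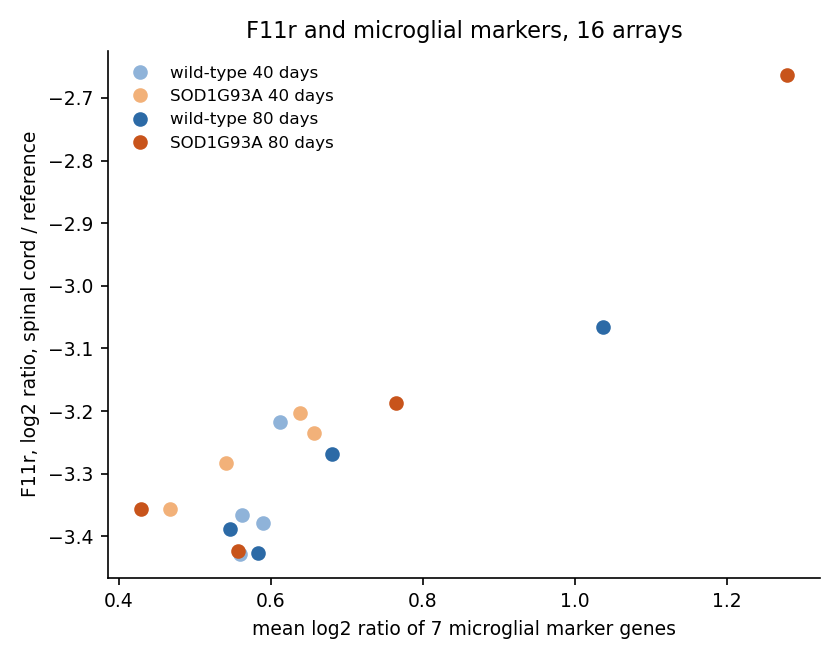
F11r log2 ratio (y axis) against the mean log2 ratio of 7 microglial marker genes (x axis), 1 point for each of the 16 arrays, coloured by group. SOD1G93A 80 days replicate 4 (1.28 and −2.66) and wild-type 80 days replicate 3 (1.04 and −3.07) lie to the upper right of the others.

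*Tjp1* codes for ZO-1, the scaffold that ties claudins to the cytoskeleton, and its 2 probes gave different calls, a difference that was not tested. The brighter probe read −1.21, −1.39, −1.18 and −1.15 in wild-type and −1.36, −1.32, −1.47 and −1.07 in SOD1G93A at 80 days. These overlapped (change −0.07 ± 0.09, limma p = 0.45, exact permutation p = 0.514). The dimmer probe, printed above, read 0.15, 0.0026, 0.06 and −0.0023 in wild-type and −0.13, −0.21, −0.11 and −0.21 in SOD1G93A. It was lower in SOD1G93A by 0.22 (SE 0.06, limma p = 0.0051, adjusted p = 0.654), with no overlap (exact permutation p = 0.0286). Before normalization the Cy3 signals of this dimmer probe at 80 days were 55.5 to 62 units in wild-type and 52 to 63.5 in SOD1G93A. Those of the brighter probe were 111 to 156. The mean Cy5 signal of the dimmer probe was 275.6 in wild-type and 294.8 in SOD1G93A. Its call was not tested under other ways of processing or with arrays left out. At 40 days neither probe was called, with changes of −0.0068 (limma p = 0.916, exact permutation p = 0.886) and −0.05 (limma p = 0.641, exact permutation p = 0.6).

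*Llgl1* codes for a homologue of the fly polarity protein Lethal giant larvae. At 80 days its log2 ratios were 0.95, 0.91, 0.83 and 0.91 in wild-type and 1.02, 1.15, 1.30 and 1.22 in SOD1G93A. All SOD1G93A arrays were above all wild-type arrays, by the least on the slide of replicate 1 (0.06) and by the most on that of replicate 3 (0.47). *Llgl1* was higher in SOD1G93A by 0.27 (SE 0.07, 95% interval 0.11 to 0.43, fold 1.21, limma p = 0.00323, adjusted p = 0.654, exact permutation p = 0.0286). At 40 days it read 1.25, 0.99, 1.07 and 1.38 in wild-type and 1.09, 1.22, 1.12 and 1.30 in SOD1G93A. Those overlapped, with a change of 0.01 ± 0.09 (limma p = 0.907, exact permutation p = 0.943). The group means were 1.17 in wild-type and 1.18 in SOD1G93A at 40 days, and 0.90 in wild-type and 1.17 in SOD1G93A at 80 days.

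*Myh14* codes for the heavy chain of non-muscle myosin IIC. At 80 days its log2 ratios were −0.88, −0.91, −0.85 and −0.87 in wild-type and −0.68, −0.53, −0.64 and −0.77 in SOD1G93A. The wild-type arrays lay close together (SD 0.03) and all below the SOD1G93A arrays. *Myh14* was higher in SOD1G93A by 0.23 (SE 0.06, 95% interval 0.08 to 0.37, fold 1.17, limma p = 0.00519, adjusted p = 0.654, exact permutation p = 0.0286). At 40 days it read −0.75, −0.98, −1.07 and −0.77 in wild-type and −1.25, −0.995, −0.77 and −0.81 in SOD1G93A, with overlap and a change of −0.06 ± 0.11 (limma p = 0.602, exact permutation p = 0.657). The second *Myh14* probe was not well above background on any array of 80 days and gives no check.

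**Figure D3:**
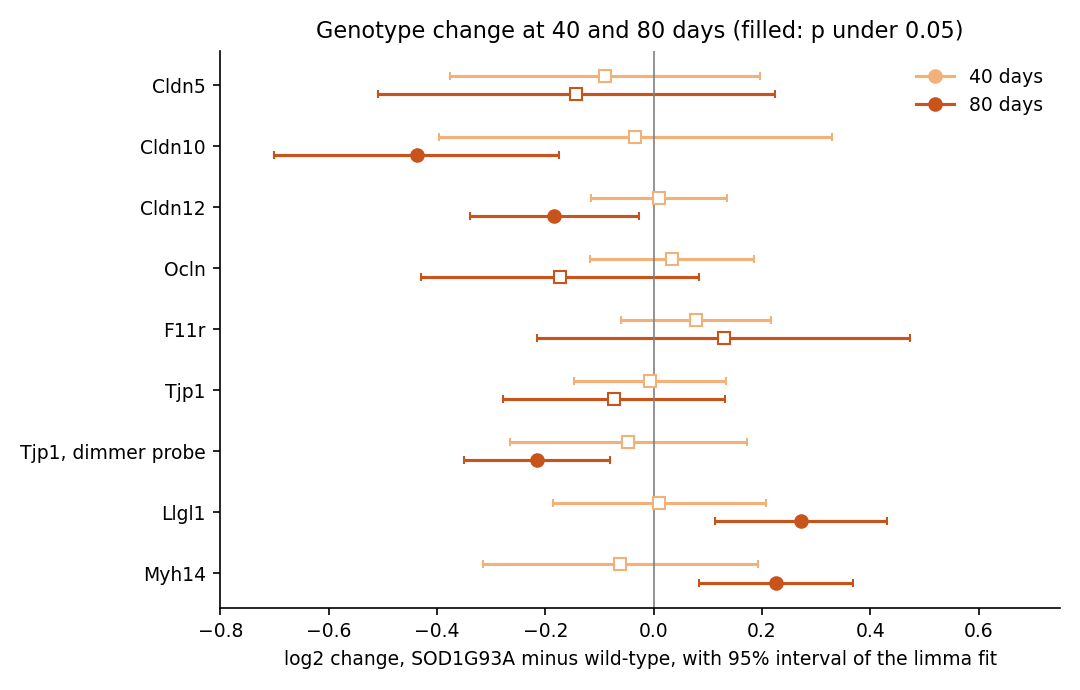
Log2 change, SOD1G93A minus wild-type (x axis), of each tested probe (rows) at 40 and 80 days with 95% intervals, filled where limma p was under 0.05. Filled points are at 80 days only, with Cldn10 at −0.44, Cldn12 at −0.18, the dimmer Tjp1 probe at −0.22, Llgl1 at 0.27 and Myh14 at 0.23.

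*Cldn10*, *Llgl1* and *Myh14* were called at 80 days under each of 9 other ways of processing and after leaving out each of the 8 arrays in turn. Over the 9 settings the change ran from −0.46 to −0.31 for *Cldn10*, from 0.23 to 0.35 for *Llgl1* and from 0.22 to 0.31 for *Myh14*.

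**Figure D4:**
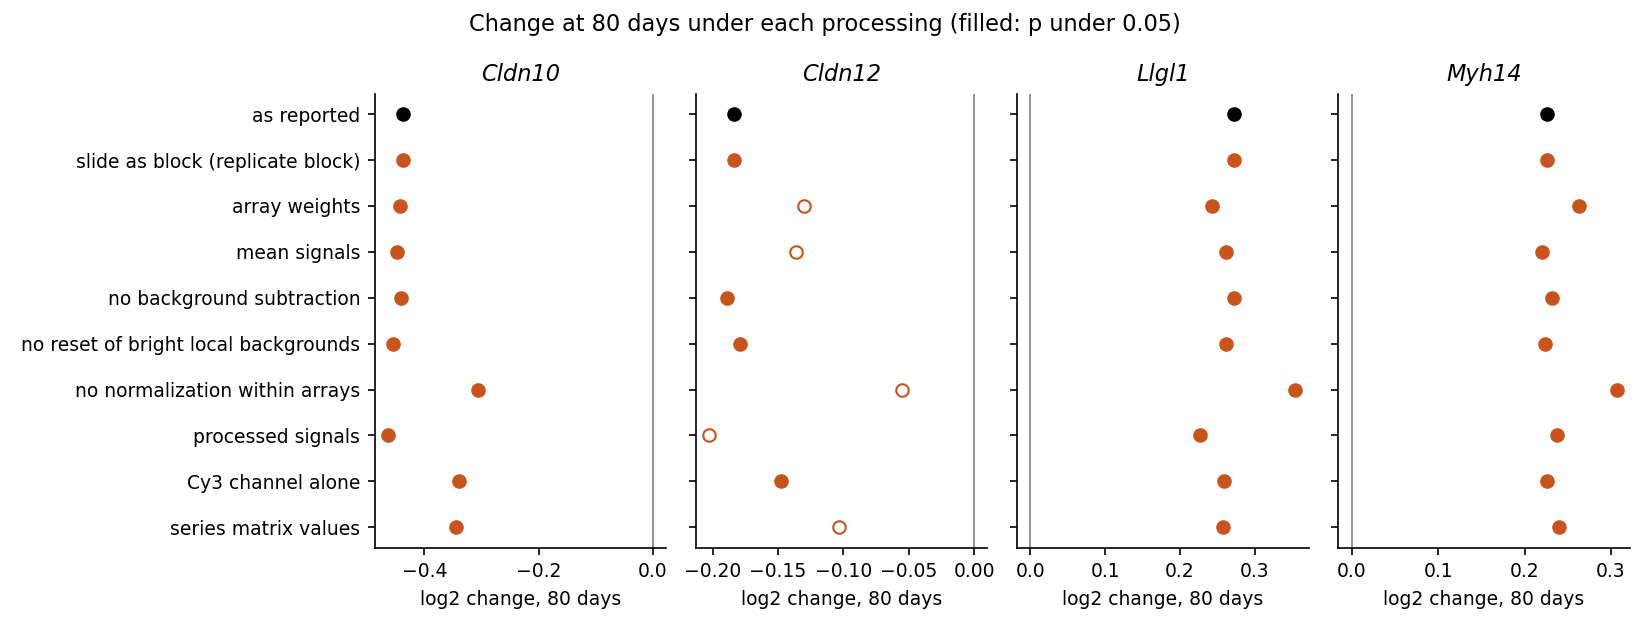
Log2 change at 80 days (x axis) of the called genes under the main processing and each alternative (rows), filled where limma p was under 0.05. Cldn10, Llgl1 and Myh14 are filled throughout, whereas Cldn12 moves between −0.20 and −0.05 and is open under 5 of the 9 alternatives.

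Whether the genotype change differed between the ages was tested over all 16 arrays, where 6.68% of 21953 probes were called. Of the 8 genes 3 were called. The change of *Myh14* was higher at 80 than at 40 days by 0.29 (limma p = 0.0494, exact permutation p = 0.0698), that of *Llgl1* by 0.26 (limma p = 0.0368, exact permutation p = 0.0808), and that of *Cldn12* was lower, at −0.19 (limma p = 0.0396, exact permutation p = 0.0469). For *Cldn10* the difference was −0.40 ± 0.22 (limma p = 0.0822, exact permutation p = 0.158). None passed adjustment (adjusted p 0.734 to 0.783), and the number called ran from 0 (without SOD1G93A replicate 1 of 40 days) to 4 (without SOD1G93A replicate 4 of 40 days) when single arrays were left out. Of 16 such fits the call was lost in 11 for *Myh14*, in 7 for *Llgl1* and in 9 for *Cldn12*.

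With age, 15.1% of probes were called in wild-type and 16.9% in SOD1G93A, the comparisons sharing their groups with those above. *Llgl1* fell from 40 to 80 days in wild-type, by 0.27 (SE 0.08, limma p = 0.00415, exact permutation p = 0.0286, adjusted p = 0.117) and without overlap, and its change in SOD1G93A was −0.0094 (limma p = 0.909, exact permutation p = 0.971). *Myh14* rose with age in SOD1G93A by 0.30 (SE 0.10, limma p = 0.00631, exact permutation p = 0.0571, adjusted p = 0.134), although arrays of the ages overlapped, and its change in wild-type was 0.01 (limma p = 0.897, exact permutation p = 0.914). *Cldn12* fell in SOD1G93A by 0.17 (SE 0.06, limma p = 0.0121, exact permutation p = 0.0286, adjusted p = 0.175) without overlap, and its change in wild-type was 0.02 (limma p = 0.737, exact permutation p = 0.686). In wild-type *Cldn10* went the other way from its genotype change, at 0.30 (limma p = 0.0722, exact permutation p = 0.143), which did not pass. Its change with age in SOD1G93A was −0.11 (limma p = 0.495, exact permutation p = 0.514). The call of *Llgl1* in wild-type was lost with Cy3 alone (−0.26), and that of *Cldn12* in SOD1G93A under 4 of the alternatives, with a change of −0.09 with Cy3 alone.

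The other genes of the junction were read from a list of 59, of which 57 were on the array. At 40 days 39 were tested and 0 were called by limma, with a median change of −0.02. The number called at 40 days was 3 with array weights, 3 without normalization within arrays and 5 without wild-type replicate 4. At 80 days 41 were tested and 7 were called, all higher, which is 17.1% beside the 6.86% of all probes, and the median change was 0.02. None passed adjustment. The mean log2 ratio of the 41 genes ran from −0.44 to −0.42 over the wild-type and from −0.41 to −0.38 over the SOD1G93A arrays of 80 days, without overlap. At 40 days it ran from −0.41 to −0.35 in wild-type and from −0.41 to −0.38 in SOD1G93A, with overlap. Its group mean was −0.395 in SOD1G93A at both ages, and −0.374 at 40 and −0.432 at 80 days in wild-type. How often the means of such lists do not overlap was not tested. The number called at 80 days was 4 when bright local backgrounds were not reset and 3 with the scanner's processed signals. It was 1 when SOD1G93A replicate 2 of 80 days was left out. The study had itself listed *Cttn*, *Epb41l1* and *Magi1* as higher at 80 days on these arrays. In the same pathway it listed *Mpdz*, *Jam2* and *Epb41l2* as higher and *Vapa* as lower. None of the latter genes was called here. Their changes had the listed directions, at 0.16 for *Mpdz*, 0.13 for *Jam2*, 0.06 for *Epb41l2* and −0.13 for *Vapa*. Both the calls and these directions come from the arrays on which the study listed the genes. They are therefore not independent evidence, and the 17.1% includes such genes.

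Among genes of actin and signalling, 4 of 10 were called higher in SOD1G93A at 80 days, when 3.74% of all probes were called higher. They were *Cttn*, which codes for the actin-binding protein cortactin (0.40 ± 0.13, limma p = 0.0118, exact permutation p = 0.0571), *Epb41l1*, which links membrane and cytoskeleton (0.17 ± 0.07, limma p = 0.0383, exact permutation p = 0.0571), *Sympk*, a protein of junctions and of RNA 3′ end processing (0.37 ± 0.16, limma p = 0.0398, exact permutation p = 0.229), and *Myh10*, the heavy chain of non-muscle myosin IIB (0.16 ± 0.07, limma p = 0.0478, exact permutation p = 0.0571). Among scaffolds 3 of 13 were called higher, *Cgnl1* (paracingulin, 0.20 ± 0.07, limma p = 0.0171, exact permutation p = 0.0571), *Amotl2* (an angiomotin, 0.20 ± 0.07, limma p = 0.0185, exact permutation p = 0.0571) and *Magi1* (0.22 ± 0.09, limma p = 0.0348, exact permutation p = 0.0857). In each of the 7 the arrays of the genotypes overlapped at 80 days. *Cttn* was called under all 9 other ways of processing and all 8 fits without an array, and *Amotl2* under all 9 and in 6 of 8. The others lost their calls more widely, *Myh10* under 5 of 9 and in 6 of 8, *Epb41l1* under 5 and in 5, *Sympk* under 4 and in 3, *Cgnl1* under 3 and in 1, and *Magi1* under 2 and in 5. At 80 days *Cttn* read −0.42 to 0.13 in wild-type and 0.02 to 0.47 in SOD1G93A. *Amotl2* went the other way at 40 days without being called, with a change of −0.11 (exact permutation p = 0.0286). It then read −0.6354 to −0.6016 in wild-type and −0.8045 to −0.641 in SOD1G93A, without overlap. The others of the 7 overlapped at 40 days. The genotype change of *Amotl2* was higher at 80 than at 40 days by 0.32, called by limma but not after adjustment. In that comparison 5 of the 41 genes were called, or 12.2% beside 6.68% of all probes. The change was higher at 80 days for *Amotl2*, *Cttn*, *Cgnl1* and *Mpdz* and lower for *Cldn3*, and none passed adjustment.

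None of the tested claudins, tricellular, adhesion or polarity genes of the list passed the test, and whether the roles differed was not tested. Of 7 other claudins tested at 80 days 6 had a negative and 1 a positive change, the median was −0.06, and the widest was *Cldn3* (−0.15 ± 0.08, limma adjusted p = 0.745). The 3 tested immunoglobulin adhesion genes had positive changes, *Jam2* 0.13 (limma adjusted p = 0.756), *Jam3* 0.10 (limma adjusted p = 0.842) and *Esam* 0.10 (limma adjusted p = 0.799). *Lsr*, of tricellular junctions, read −0.15 (limma adjusted p = 0.812). None of 7 polarity genes apart from *Llgl1* was called at 80 days, with a median of −0.04.

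**Figure D5:**
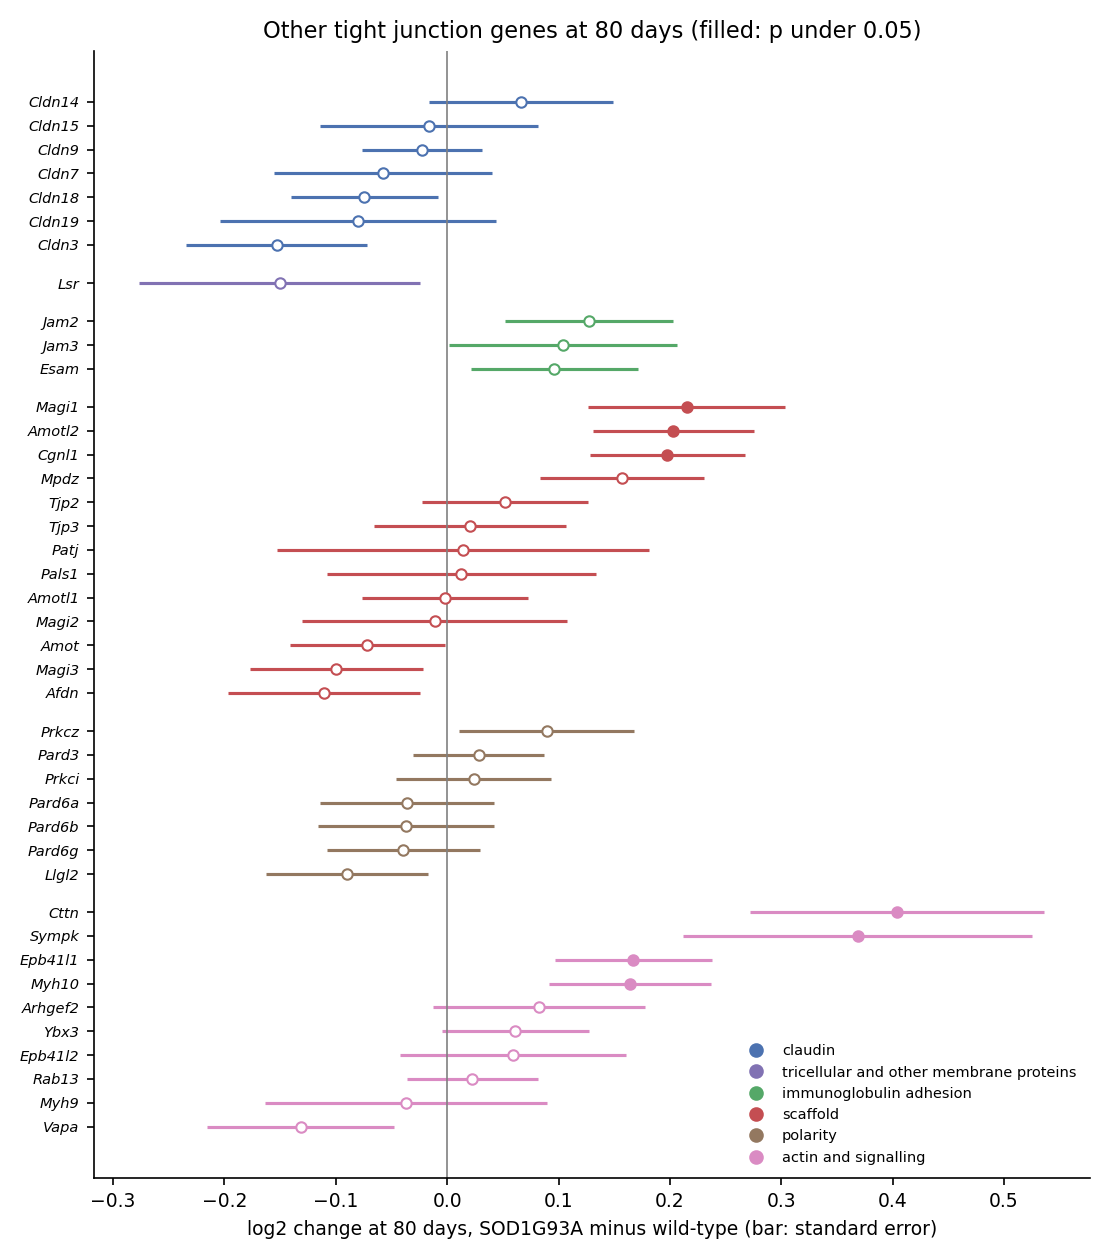
Log2 change at 80 days, SOD1G93A minus wild-type (x axis), of the 41 tested genes of the list of other tight junction genes, coloured by role and filled where limma p was under 0.05. The 7 filled points, from 0.16 to 0.40, belong to the scaffold and the actin and signalling genes.

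Markers of other cells were read at the same time, and their part in the results was not tested. Astrocyte markers were 9 of 9 well above background on all arrays. At 80 days, when 6.86% of all probes were called, 1 of them was called lower in SOD1G93A (*Slc1a2*, −0.26, limma adjusted p = 0.708). Of the 9, 8 had a negative change, with a median of −0.06. At 40 days 4 of the 9 were called higher in SOD1G93A, when 4.47% of all probes were called. They were *Gfap*, *Slc1a3*, *Slc1a2* and *S100b*, each with a limma adjusted p of 0.998. Over the 16 arrays *Cldn10* and the astrocyte mean had r of −0.00686 (permutation p = 0.98, adjusted 0.984), rho of 0.0588 (permutation p = 0.831), r of 0.128 without the 2 farthest arrays and r of −0.445 after the group means were taken away. Of 7 oligodendrocyte markers 2 were called higher in SOD1G93A at 80 days (*Mog* 0.27, limma adjusted p = 0.708, and *Cnp* 0.24, limma adjusted p = 0.708). The mean of the 7 ran from 5.14 to 5.51 in wild-type and from 5.31 to 5.41 in SOD1G93A. Over 16 arrays *Llgl1* and the oligodendrocyte mean had r of 0.635 (permutation p = 0.00901, adjusted 0.18), rho of 0.556 (permutation p = 0.0268) and r of 0.556 without the 2 farthest arrays. After the group means were taken away r of *Llgl1* was 0.550 with oligodendrocyte, −0.732 with endothelial and −0.742 with pericyte markers, and r of *Cldn12* with astrocyte markers was −0.788. These values were picked from 80 relations and were not tested. With the group means kept, r of *Llgl1* was −0.342 with endothelial (permutation p adjusted 0.647) and 0.0664 with pericyte markers (adjusted 0.948). That of *Cldn12* with astrocyte markers was −0.103 (permutation p adjusted 0.906). *Tjp1* and the pericyte mean had r of 0.632 (permutation p = 0.00879, adjusted 0.18), and 0.604 without the 2 farthest arrays. Of 7 neuron markers 7 had a negative change at 80 days, with a median of −0.06, and 1 was called lower (*Syt1*, −0.33, limma adjusted p = 0.720). At 40 days 6 of 7 had a positive change and 0 were called by limma. Schwann cell markers had a negative change in 4 of 4 at 40 days (median −0.96), and meningeal fibroblast markers in 8 of 8 (median −0.53). At 80 days it was 3 of 3 (median −0.16) and 6 of 8 (median −0.12). In both lists 0 were called by limma at either age. Skeletal muscle markers had a positive change in 5 of 5 at both ages, with medians of 0.83 at 40 and 0.52 at 80 days, and 0 were called by limma. Their mean at 80 days ran from −3.18 to −1.52 in wild-type and from −3.16 to −1.29 in SOD1G93A. At 40 days it ran from −3.33 to −2.22 in wild-type and from −3.14 to −0.13 in SOD1G93A. There replicate 2 of SOD1G93A stood apart, with the next highest SOD1G93A array at −2.33, so the 5 genes are not separate observations.

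For the other members the most similar genes over the 16 arrays were the following, as a description only, since all points share arrays and normalization. *Cldn5* was closest to *Cttnbp2* (r = 0.811) and *Tbx1* (r = 0.810), and *Cldn10* to *Prim2* (r = 0.851) and *Eif1a* (r = 0.850). *Cldn12* was closest to *Zfp329* (r = 0.850) and *Epc1* (r = 0.837), and *Tjp1* to *D630023B12Rik* (r = 0.882) and *Crebbp* (r = 0.877). *Llgl1* was closest to *Cd82* (r = 0.910) and *Cryab* (r = 0.906), and *Myh14* to *Calm3* (r = 0.878) and *Eef2* (r = 0.850).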

How the data were processed

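Lumbar spinal cord RNA (Cy3) and a common reference (Cy5) were hybridized to 16 Agilent whole mouse genome arrays. The deposited scanner files hold spot intensity in both channels (Feature Extraction 9.5.3.1 per the file headers, probe positions on mm7), and the authors' series matrix holds log2 values that follow Cy3 alone (r 0.993 to 0.999), normalized apart at each age. Their medians were 6.40 at 40 days and 6.09 to 6.10 at 80 days, and their centring is not given in the sources used here.

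Median signals were used. A local background over 20 units above its spot was set to the median of its array and channel, and without this step a few spots changed the correction of every probe on an array. Background was corrected by normexp (offset 50), ratios by loess on each array and then by Aquantile over all arrays (limma 3.58.1, R 4.3.3). Control spots had no weight, outlier spots were dropped, and a probe's spots were averaged. A probe was tested where the Cy3 mark for well above background was present in 3 or more of the 4 arrays of a group. Tests used lmFit and eBayes over all such probes, two-sided, called at an unadjusted p under 0.05 as in the study's methods, with Benjamini-Hochberg values beside. A genotype comparison used the 8 arrays of its age, and the interaction and age comparisons all 16. Single probes had an exact two-sided permutation test (70 splits, or 4900 labellings for the interaction). The script was tested on simulated data.

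The brightest probe stood for a gene, and named genes were the 9 members, the called genes of the list of other tight junction genes (at most 8 an age, in order of p), and the 2 genes most correlated with each member well above background on all arrays. The members, lists, reset and tests were chosen with earlier results of these data known. Same-numbered arrays of an age share a slide, but their deviations from the group means correlated at −0.0659 to 0.198, with 2 of 8 pairs over 0.1, so the numbers were not taken as pairs. Alternatives were no reset, no background subtraction, processed or mean signals, no normalization within arrays, Cy3 alone, array weights, the slide as a block, the matrix values, other filters and each array left out. The number of arrays limits the precision. Figures were drawn with matplotlib 3.10.9.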

Additional observations from a re-analysis of the deposited data

Results flagged for a closer look

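In SOD1G93A 80 days the *Cldn5* log2 ratio of replicate 3, −2.66, lay apart from the other arrays, of which the nearest was −2.10, a gap of 0.916 of the range of the group. In wild-type 80 days the *Ocln* log2 ratio of replicate 4, −0.97, lay apart from the nearest, −1.40, a gap of 0.899 of the range. Chance sets apart about 1 group in 20 by the measure used here.

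The genotype change differed between 40 and 80 days in limma for *Myh14* (0.29), *Llgl1* (0.26) and *Cldn12* (−0.19), with adjusted p between 0.734 and 0.745. By the exact permutation test p was 0.0698, 0.0808 and 0.0469.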

How the results depend on the processing

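Over the 5 comparisons, results of single genes that were called in the processing reported here kept their direction and call in 105 of 147 settings, lost the call in 41 and reversed in 1. Leaving out arrays kept 132 of 184 and lost the call in 52. Results not called kept direction and side in 217 of 254 settings, were called in 4 and reversed in 33. The cause was not tested, except that no filter tests more probes.

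Numbers of probes called moved by over 1.5 times as follows. At 40 days there were 550 with Cy3 alone, 246 with no reset, 1615 with processed signals, 538 with matrix values and 1881 with no filter, against 953. At 80 days there were 2389 with array weights and 2412 with no filter, against 1481. The interaction called 2459 with no filter, 4308 without normalization within arrays and 797 with no reset, against 1466, and age in wild-type 5004 with no filter, against 3307. Members called in the interaction were 0 with Cy3 alone or processed signals and 1 with mean signals, against 3. In age in wild-type they were 0 with Cy3 alone and 2 with the replicate block, against 1. In age in SOD1G93A they were 1 with Cy3 alone, mean signals, processed signals or no normalization within arrays, against 2. Of calls at 40 days 54.6% were higher in SOD1G93A, with 70.4% for Cy3 alone, 67.1% for matrix values, 86.4% for processed signals, 40.2% with no reset and 0.556% without normalization within arrays, which moved the median of all probes to −0.12. At 80 days 54.5% were higher, with 42.4% with no reset, 35.6% for processed signals and 96.8% without normalization within arrays (median 0.08). In the interaction 46.6% were higher, with 31.1% for Cy3 alone, 19.3% for processed signals and 99.6% without normalization within arrays. With age 45% were higher in wild-type, with 60% for processed signals and 1.51% without normalization within arrays, and 51.1% in SOD1G93A, with 34.8% and 91.3%.

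Directions reversed as follows. At 40 days with Cy3 alone *Cldn10* 0.019, *F11r* −0.011, *Llgl1* −0.019 and *Tjp1* 0.044, with mean signals *Cldn12* −0.022, with no reset *Tjp1* 0.0019, with processed signals *Tjp1* 0.045, with matrix values *Cldn12* −0.0087, *F11r* −0.0062, *Llgl1* −0.050 and *Tjp1* 0.044, and without normalization within arrays *Cldn12* −0.092, *F11r* −0.049, *Llgl1* −0.12 and *Ocln* −0.10 were read. At 80 days *Tjp1* read 0.018 without that normalization and 0.019 with matrix values. In the interaction *Cldn5* read 0.027 with array weights, and without normalization within arrays *Cldn12* read 0.037, *Cldn5* 0.19 and *Tjp1* 0.16. In age in wild-type *Myh14* read −0.038 and *Ocln* −0.026 with Cy3 alone, *Cldn12* −0.00050 and *Myh14* −0.00087 with array weights, *Cldn12* −0.13, *F11r* −0.088 and *Myh14* −0.14 without normalization within arrays, *Ocln* −0.031 with no reset and *Myh14* −0.0037 with processed signals. In age in SOD1G93A *Llgl1* read 0.015 with Cy3 alone, 0.082 without normalization within arrays and 0.012 with no reset, and *Ocln* 0.038 without normalization within arrays.

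When single arrays were left out, the changes at 40 days ran from −0.12 to 0.036 for *Myh14*, −0.16 to 0.030 for *Cldn5*, −0.16 to 0.083 for *Cldn10*, −0.0037 to 0.071 for *Ocln*, −0.056 to 0.019 for *Tjp1*, −0.012 to 0.038 for *Cldn12* and −0.049 to 0.078 for *Llgl1*, and probes called from 715 (without SOD1G93A replicate 2) to 1894 (without wild-type replicate 4). At 80 days *F11r* ran from −0.036 to 0.22, *Cldn5* from −0.23 to 0.0061 and probes called from 974 (without SOD1G93A replicate 3) to 1846. In the interaction members called ran from 0 to 4, *F11r* from −0.11 to 0.14 and *Cldn5* from −0.17 to 0.096. In age in SOD1G93A *F11r* ran from −0.053 to 0.20 and *Llgl1* from −0.052 to 0.042. In age in wild-type members called ran from 1 to 2, *Myh14* from −0.046 to 0.061, *Cldn12* from −0.017 to 0.049, *F11r* from −0.014 to 0.11 and *Ocln* from −0.0081 to 0.15.

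With the replicate block, the slide, the *Myh14* interaction lost its call (0.29), and *Cldn10* was called in the interaction (−0.40) and in age in wild-type (0.30). It changed no other call of a member, and probes called at 80 days were 1689. Signals near background limit *Cldn1*, *Ocln* and the dimmer *Tjp1* probe.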
